A study of Mus musculus with 8 samples.

Results

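Transcripts of the mitochondrial respiratory chain and ATP synthase were compared between mouse embryonic stem (ES) cells with a knockdown of the histone demethylase Jmjd2b, ES cells with a knockdown of Jmjd2c, and control ES cells. The genes were chosen by symbol: the Nduf genes of complex I, Sdha to Sdhd of complex II, the Uqcr genes of complex III, Cox4 to Cox8 genes of complex IV and the Atp5 genes of ATP synthase, also called complex V. A gene entered if a probe set of the array was annotated to its symbol alone, and its brightest such probe set, by the mean of the 8 arrays, represented it. This gave 81 of the 18193 genes measured, of which 35 belonged to complex I, 4 to complex II, 8 to complex III, 17 to complex IV and 17 to complex V. All 81 are nuclear genes, and none of the subunits that mitochondria encode themselves is among them. Of the 81 genes, 75 had a mean log2 level above the median of all genes and 6 lay below it.

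All samples were male ES cells of strain 129S4/Svjae with the agouti phenotype, grown with the cytokine LIF, and all received a lentivirus with a short hairpin RNA (shRNA) and were selected with puromycin and passaged. The hairpin was directed against Jmjd2b in 3 samples, against Jmjd2c in 2 samples and against GFP in the 3 control samples. Each sample was hybridised to 1 array, and the deposited values are linear intensities, 1 per probe set. The hairpin sequences, and whether the selected cells were pools or clones, are not given in the sources used here. Nothing in the labels says that replicates came from separate infections, so the spread behind every p-value may be technical.

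Oxidative phosphorylation is the last stage of respiration. Complexes I and II pass electrons from NADH and succinate to ubiquinone, complex III passes them on to cytochrome c, and complex IV, cytochrome c oxidase, hands them to oxygen. Complexes I, III and IV pump protons across the inner membrane, and complex V lets the protons flow back and makes ATP. Naive ES cells use both respiration and glycolysis, and the later, primed pluripotent cells rely more on glycolysis. Several subunits of complex IV have a ubiquitous form and another form made mostly in muscle, lung or testis.

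The arrays had medians between 44.7 and 46.6 and correlated at 0.981 to 0.993 within a group after conversion to log2. The targets were low in their own knockdowns. Kdm4b, the current name of Jmjd2b, had 6.89% of its control mean left under the Jmjd2b hairpin, and Kdm4c, the current name of Jmjd2c, had 23.9% left under the Jmjd2c hairpin. Each was also below all control arrays under the other hairpin without passing the test, with 56.6% of Kdm4b left in the Jmjd2c knockdown (limma, adjusted p = 0.178) and 57.3% of Kdm4c left in the Jmjd2b knockdown (adjusted p = 0.102). The Jmjd2c knockdown arrays differed in this, with Kdm4c intensities of 141.9 and 469.5, against 1331.9, 1300.1 and 1210.0 in the control arrays. In Jmjd2b knockdown array 2 and control arrays 1 and 2 412 to 455 intensities were exactly 1 and at most 2 lay below 1, here called a floor at 1, and in the other 5 arrays 172 to 241 lay below 1. All 8 ES cell markers had group means above 100, with summed intensities of 47314 to 49612 in the Jmjd2b knockdown, 50587 to 51014 in the Jmjd2c knockdown and 62337 to 63369 in the control. Of these markers 6 fell in the Jmjd2b knockdown (75%, beside 12.9% of all genes) and 3 in the Jmjd2c knockdown (37.5%, beside 5.28%), and none rose. The ratio of 3' to 5' actin probe sets, which rises as RNA degrades, was 1.42, 1.36 and 1.31 in the Jmjd2b knockdown, 1.48 and 1.43 in the Jmjd2c knockdown and 1.63, 1.45 and 1.56 in the control. For this actin ratio the Jmjd2b knockdown arrays lay below all control arrays and the Jmjd2c knockdown arrays overlapped them, and the same ratio for Gapdh overlapped in all groups, at 0.937 to 0.987 in the Jmjd2b knockdown, 0.944 to 0.987 in the Jmjd2c knockdown and 0.936 to 0.980 in the control.

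Some markers of other cell types also passed the test. Of 6 trophectoderm markers 2 rose and 2 fell in the Jmjd2b knockdown, and their summed intensity was 1126.9 to 2022.8 in the Jmjd2b knockdown, 450.8 to 466.9 in the Jmjd2c knockdown and 423.1 to 649.0 in the control. Of 5 neural markers 2 rose in the Jmjd2b knockdown, with sums of 876.4 to 1500.4 in the Jmjd2b knockdown, 793.3 to 1218.0 in the Jmjd2c knockdown and 730.2 to 876.2 in the control. Of 8 markers of fibroblast feeders 1 rose and 2 fell in the Jmjd2b knockdown, with sums of 341.6 to 367.6 in the Jmjd2b knockdown, 377.9 to 433.6 in the Jmjd2c knockdown and 606.5 to 662.1 in the control. Of 6 primitive endoderm markers 1 rose in the Jmjd2b knockdown, with sums of 184.3 to 237.4 in the Jmjd2b knockdown, 113.2 to 294.6 in the Jmjd2c knockdown and 130.3 to 160.5 in the control. In the Jmjd2c knockdown 1 trophectoderm marker rose and 1 fell, 1 neural marker rose, 2 feeder markers fell and no primitive endoderm marker passed. Rises in the Jmjd2b knockdown were 33.3% (trophectoderm), 40% (neural), 12.5% (feeder) and 16.7% (primitive endoderm), beside 11.6% of all genes. Falls there were 33.3% (trophectoderm) and 25% (feeder), beside 12.9%. In the Jmjd2c knockdown rises were 16.7% (trophectoderm) and 20% (neural), beside 4.31%. Falls there were 16.7% (trophectoderm) and 25% (feeder), beside 5.28%. All 6 primitive endoderm markers had means under 100 in every group. So did 6 or 7 of the feeder markers and 3 to 5 of the trophectoderm markers, depending on the group. The part of these markers, of the ES cell markers and of the actin ratio in the results below was not tested.

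The first comparison asked which subunit transcripts changed when Jmjd2b was knocked down. Most of the 81 genes changed little: 59 did not pass the test, 19 fell and 3 rose, and 18 of the 22 changed genes moved by less than 1.5-fold. The largest changes were in genes that have isoforms. Atp5g1, which encodes subunit c of ATP synthase, rose 2.56-fold, while Ndufa4l2 and the muscle and testis isoforms Cox7a1 and Cox6b2 fell to between 17.6% and 51.7% of the control mean. The median log2 change over the 81 genes was -0.09, and over all genes it was -0.03. Changes are differences of mean log2(intensity + 16), which understates the change of dim genes, and were tested in limma on all 8 arrays with Benjamini-Hochberg adjustment over all genes and a threshold of 0.05.

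As a background to these counts, 12.9% of all genes fell and 11.6% rose in the Jmjd2b knockdown, and 24.4% changed in either direction. Among the 75 subunit genes above the median level, 25.3% fell and 2.67% rose, and among all genes above that level 18.9% fell and 17.7% rose. The 3 Jmjd2b knockdown arrays lay below all 3 control arrays for 32 of the 81 genes and above them for 8, and the shares over all genes were 23.8% and 21%. The number that fell rested on control array 3: without that array 10 genes fell in place of 19. With the replicate number as a block 2 genes rose and 18 fell, and Ndufb1 and Ndufb11 were no longer among them. With array type, by whether the floor at 1 was present, as a block, 2 genes rose and 22 fell; within the 3 arrays with the floor 1 rose and 2 fell, and Atp5g1 was the 1 gene to pass within the other 5. These fits within an array type set 1 Jmjd2b knockdown array against 2 control arrays, or 2 against control array 3, and assume that the lone array varies like the others. A lower intensity in these bulk samples can come from fewer cells of a kind or from less RNA per cell, and these cannot be told apart.

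**Figure D1:**
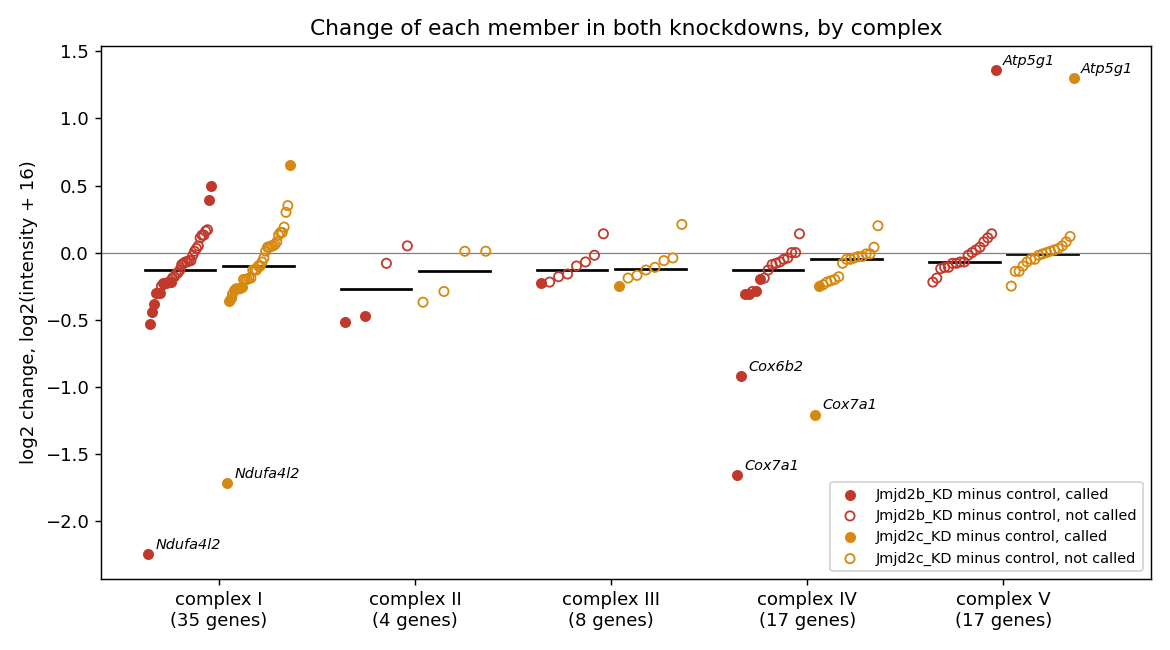
Log2 change of each of the 81 genes (vertical axis, on the log2(intensity + 16) scale) in the Jmjd2b knockdown (red) and the Jmjd2c knockdown (orange) against the control, by complex. Filled points passed the test, open points did not, and horizontal bars are medians. Most genes lie close to 0, with Atp5g1 far above and Ndufa4l2, Cox7a1 and, in the Jmjd2b knockdown, Cox6b2 far below.

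The Jmjd2c knockdown was compared with the control in the same way. Here 2 of the 81 genes rose (Atp5g1 and Ndufb1) and 8 fell (Ndufa4l2, Cox7a1, Ndufa7, Ndufv3, Ndufv1, Ndufa6, Uqcrc2 and Cox6c), and 71 did not pass. Over all genes 4.31% rose and 5.28% fell, and 9.59% changed in either direction. The median log2 change over the 81 genes was -0.06, and over all genes it was -0.02. Among the 75 subunit genes above the median level 1.33% rose and 10.7% fell, beside 7.06% and 8.2% of all genes above that level. The Jmjd2c knockdown arrays lay below all 3 control arrays for 31 of the 81 genes and above them for 10, beside 21.2% and 17.4% of all genes. All 10 genes that passed had also changed in the same direction in the Jmjd2b knockdown, but both comparisons use the same 3 control arrays. The split depended on the scaling: with each array set to a common median, 5 genes rose and 2 fell, and only Atp5g1, Ndufb1, Ndufa4l2 and Cox7a1 were among the 10. With array type as a block 1 gene rose and 8 fell, of which 5 were among the 8 named, and within the arrays without the floor at 1, where control array 3 was alone, none passed in limma. It also depended on single libraries, since 1 gene fell without control array 3, 2 without control array 1, 2 without Jmjd2c knockdown array 2, 4 without control array 2, 4 without Jmjd2b knockdown array 1, 4 without Jmjd2b knockdown array 2 and 5 without Jmjd2b knockdown array 3. The number that rose was 4 without Jmjd2c knockdown array 1, 2 without Jmjd2b knockdown array 3 and 1 without each of the other 6 arrays in turn. With the replicate number as a block 1 gene rose and 3 fell.

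ATP synthase makes ATP as protons turn a ring of identical c subunits in the membrane, and in mammals several genes encode the same mature subunit c with different mitochondrial import signals. Of these, Atp5g1 had intensities of 3450.4, 3528.4 and 3562.8 in the Jmjd2b knockdown, 3431.7 and 3342.4 in the Jmjd2c knockdown, and 1263.9, 1472.7 and 1361.8 in the control. The 5 knockdown arrays lay together and far above the 3 control arrays. On the log2 scale it rose by 1.36 ± 0.08 (SE; limma, adjusted p = 1.56e-05) in the Jmjd2b knockdown and 1.30 ± 0.09 (adjusted p = 0.000337) in the Jmjd2c knockdown. The direct difference, Jmjd2c minus Jmjd2b knockdown, was -0.05 ± 0.09 (adjusted p = 0.857).

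The other c subunit genes showed no such shift. Atp5g2 had 4742.9, 4117.7 and 4744.6 in the Jmjd2b knockdown, 5164.2 and 5134.3 in the Jmjd2c knockdown, and 4577.5, 4604.2 and 5064.4 in the control. Atp5g3 had 8917.2, 8823.1 and 8550.5 in the Jmjd2b knockdown, 7968.4 and 8495.1 in the Jmjd2c knockdown, and 7947.9, 8447.0 and 8027.5 in the control. Neither passed the test in either knockdown. The change of Atp5g1 was 1.36 within the arrays with the floor at 1 (limma, adjusted p = 0.0193) and 1.35 within the others (adjusted p = 0.037) in the Jmjd2b knockdown, each with 1 array on 1 side. For the Jmjd2c knockdown, whose arrays could be compared only with control array 3 in this way, it was 1.30 (adjusted p = 0.152). Atp5g1 rests on 1 bright probe set, since its other one was dim, with a mean intensity of 19.8 and log2 changes of 0.12 and 0.26 in the Jmjd2b and Jmjd2c knockdowns that did not pass. Averaging both probe sets lowered the change of Atp5g1 to 0.74 and 0.78, and it still passed.

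The stretches around the start sites of the c subunit genes are printed because only 1 of these genes changed. They come from RefSeq (mouse assembly GRCm38.p6), from 250 bases before to 50 bases after the start, and each is written 5' to 3' along its gene. Capitals mark the motif of nuclear respiratory factor 1 (GCGCA, any base, then GCGC), TCAAGGTCA (estrogen-related receptors), GGGCGGG (SP1) or ACGTG (hypoxia-inducible and related factors) on either strand. CCGGAAGT (ETS factors such as GABPA) and AAGATGGCG (YY1) were also searched, and ACGTG, whose matches to the strands overlap in CACGTG, was added after the other letters had been searched. The promoters lie at chr11:96075582-96075881 (minus strand, Atp5g1), chr15:102670998-102671297 (minus strand, Atp5g2) and chr2:73911277-73911576 (minus strand, Atp5g3).
Atp5g1: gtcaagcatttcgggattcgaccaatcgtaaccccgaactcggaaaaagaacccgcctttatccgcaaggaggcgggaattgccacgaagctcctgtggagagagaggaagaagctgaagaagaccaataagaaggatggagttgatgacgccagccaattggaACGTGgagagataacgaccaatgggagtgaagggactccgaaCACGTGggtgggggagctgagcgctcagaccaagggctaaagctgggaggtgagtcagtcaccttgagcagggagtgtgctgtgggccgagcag
Atp5g2: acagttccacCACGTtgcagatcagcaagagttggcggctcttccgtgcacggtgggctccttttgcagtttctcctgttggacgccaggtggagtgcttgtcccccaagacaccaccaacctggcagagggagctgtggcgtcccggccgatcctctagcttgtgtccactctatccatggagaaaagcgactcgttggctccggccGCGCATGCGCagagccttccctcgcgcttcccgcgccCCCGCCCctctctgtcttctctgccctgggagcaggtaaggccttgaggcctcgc
Atp5g3: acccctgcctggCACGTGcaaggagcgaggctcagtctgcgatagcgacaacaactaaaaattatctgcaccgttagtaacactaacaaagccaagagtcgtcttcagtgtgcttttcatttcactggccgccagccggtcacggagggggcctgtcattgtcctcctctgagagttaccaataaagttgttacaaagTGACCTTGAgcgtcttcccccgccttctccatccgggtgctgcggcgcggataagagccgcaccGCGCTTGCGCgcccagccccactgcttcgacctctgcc

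All 3 stretches held ACGTG letters: Atp5g1 at a pair of places, 1 of them as CACGTG, Atp5g2 once as CACGT, and Atp5g3 once as CACGTG. The Atp5g1 stretch held none of the other 5 motifs. Atp5g2 held GGGCGGG letters on the reverse strand and the nuclear respiratory factor 1 letters as GCGCATGCGC, and Atp5g3 held them as GCGCTTGCGC together with TGACCTTGA, the reverse strand of the estrogen-related receptor letters. Nuclear respiratory factor 1 is a known activator of many respiratory genes. RefSeq gave 71 such windows for 66 of the 81 genes. The nuclear respiratory factor 1 motif was in 16 of them, or 22.5%, against 4.6% of all 32851 RefSeq windows, whether or not their genes were measured. Windows and not genes were counted, so genes with overlapping windows, such as Ndufa5 and Ndufa7, can count more than once. AAGATGGCG was in 8.45% of the windows of subunit genes and 1.4% of all windows, CCGGAAGT in 7.04% and 3.89%, TCAAGGTCA in 2.82% and 0.423%, GGGCGGG in 35.2% and 25.6%, and ACGTG in 26.8% and 19.6%. Of the 16 windows of genes that fell in the Jmjd2b knockdown, 6 held ACGTG, 6 held GGGCGGG, 1 each held the nuclear respiratory factor 1 motif, CCGGAAGT and AAGATGGCG, and 0 held TCAAGGTCA. These are matches of letters within 300 bases and do not show whether a factor binds.

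The other 14 genes of ATP synthase did not pass the test in either knockdown. For the catalytic subunit beta, Atp5b, the probe set was the brightest of the complex and read 9228.9, 9462.1 and 9479.8 in the Jmjd2b knockdown, 9421.9 and 10051.1 in the Jmjd2c knockdown, and 9567.2, 10046.9 and 10077.2 in the control. The median log2 change over the 17 genes was -0.07 in the Jmjd2b knockdown and -0.01 in the Jmjd2c knockdown. By role, the medians in the Jmjd2b knockdown were -0.11 for 5 genes of the F1 head and stalk, -0.09 for 4 of the peripheral stalk and 0.02 for 5 other membrane subunits. In the Jmjd2c knockdown they were -0.10, -0.03 and 0.03.

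**Figure D2:**
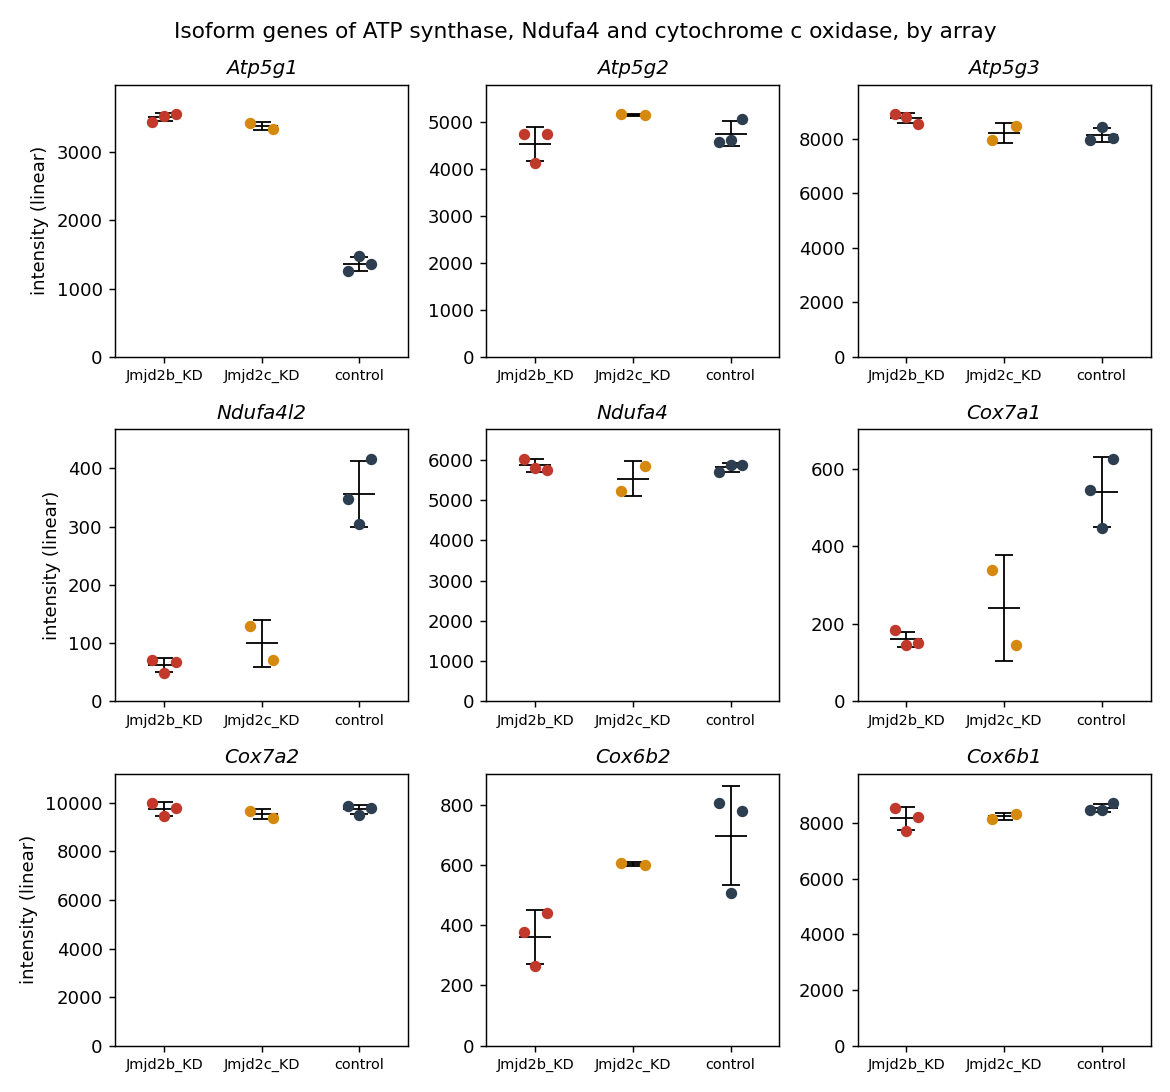
Linear intensity (vertical axes, starting at 0) of isoform genes in each array of the Jmjd2b knockdown, the Jmjd2c knockdown and the control, with group means and SD bars (n = 3, 2 and 3). Atp5g1 is higher in all 5 knockdown arrays than in the controls, Ndufa4l2 and Cox7a1 are lower in all 5, Cox6b2 is lower in the 3 Jmjd2b knockdown arrays, and Atp5g2, Atp5g3, Ndufa4, Cox7a2 and Cox6b1 did not pass the test.

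Ndufa4l2 had the largest fall. It is a paralogue of Ndufa4 that hypoxia induces and that is known to lower complex I activity, and Ndufa4 itself, named as a complex I subunit, is now assigned to complex IV. Ndufa4l2 had intensities of 71.4, 48.5 and 67.7 in the Jmjd2b knockdown, 128.4 and 70.4 in the Jmjd2c knockdown, and 346.9, 304.5 and 417.1 in the control. All 5 knockdown arrays lay below the controls, and the knockdowns overlapped each other. On the log2 scale Ndufa4l2 differed by -2.25 ± 0.21 (SE; limma, adjusted p = 0.000136) in the Jmjd2b knockdown and -1.72 ± 0.24 (adjusted p = 0.00438) in the Jmjd2c knockdown. Within the arrays without the floor at 1 the changes of Ndufa4l2 were -2.34 (adjusted p = 0.0573) and -1.95 (adjusted p = 0.212), with 1 control array, and within the arrays with the floor the change in the Jmjd2b knockdown, there 1 array, was -2.40 (adjusted p = 0.0122). Ndufa4 read 6035.6, 5799.1 and 5755.5 in the Jmjd2b knockdown, 5225.1 and 5851.9 in the Jmjd2c knockdown, and 5696.0, 5870.1 and 5880.7 in the control, and passed no test.

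Cox7a1 is the form of a cytochrome c oxidase subunit found mostly in heart and skeletal muscle. It had 182.8, 145.2 and 150.7 in the Jmjd2b knockdown, 338.3 and 144.5 in the Jmjd2c knockdown, and 545.6, 447.4 and 626.6 in the control. The groups of knockdown and control arrays did not overlap, but the Jmjd2c knockdown arrays stood far apart. On the log2 scale Cox7a1 differed by -1.66 ± 0.26 (SE; limma, adjusted p = 0.00154) in the Jmjd2b knockdown and -1.21 ± 0.29 (adjusted p = 0.0302) in the Jmjd2c knockdown. The second did not pass with array type as a block (-1.38, adjusted p = 0.06), nor with only the Jmjd2c knockdown and the control in the fit (adjusted p = 0.0815). Without Jmjd2c knockdown array 2 the change of Cox7a1 there was -0.64 (adjusted p = 0.086), and without control array 1, control array 3 or Jmjd2b knockdown array 2 it was -1.19, -1.10 and -1.21 and also did not pass. Within the arrays without the floor at 1 it was -1.82 (adjusted p = 0.143) in the Jmjd2b and -1.43 (adjusted p = 0.342) in the Jmjd2c knockdown, and within the arrays with the floor it was -1.66 (adjusted p = 0.0218) for the 1 Jmjd2b knockdown array. Its ubiquitous counterpart Cox7a2 read 9994.3, 9441.3 and 9797.0 in the Jmjd2b knockdown, 9677.2 and 9395.2 in the Jmjd2c knockdown, and 9876.8, 9512.6 and 9809.3 in the control, with overlapping groups.

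Markers of muscle were read beside Cox7a1. Of 7 of them 2 rose in both knockdowns, Acta1 and Actc1, and 1 fell in both, Myl7. The rises were 28.6%, beside 11.6% and 4.31% of all genes in the Jmjd2b and Jmjd2c knockdowns. The falls were 14.3%, beside 12.9% and 5.28%. The summed intensity of the 7 markers was 976.6 to 4110.6 in the Jmjd2b knockdown, 906.3 to 1489.4 in the Jmjd2c knockdown and 580.6 to 819.1 in the control. Tnnt2, Myh6, Myh7 and Ckm had group means of at most 46.9 in every group, so the muscle signal came mostly from the actins and Myl7.

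The promoter of Cox7a1 lies at chr7:30183921-30184220 (plus strand, GRCm38.p6, from RefSeq) and is printed as that of the gene with the second largest fall, since RefSeq windows used here held none for Ndufa4l2. Its 1 match, in capitals, is CACGT, the reverse strand of ACGTG.
Cox7a1: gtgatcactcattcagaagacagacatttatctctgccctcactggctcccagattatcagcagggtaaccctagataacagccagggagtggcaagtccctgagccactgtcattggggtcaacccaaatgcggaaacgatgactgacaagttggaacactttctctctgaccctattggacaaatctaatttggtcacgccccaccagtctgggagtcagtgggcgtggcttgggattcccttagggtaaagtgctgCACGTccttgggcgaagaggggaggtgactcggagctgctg

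Cox6b2, the testis form of another cytochrome c oxidase subunit, fell in the Jmjd2b knockdown. It had 377.3, 264.0 and 438.7 in the Jmjd2b knockdown, 607.3 and 597.9 in the Jmjd2c knockdown, and 805.1, 506.9 and 779.1 in the control. The Jmjd2b knockdown lay below both other groups, and the Jmjd2c knockdown overlapped the control. On the log2 scale Cox6b2 differed by -0.92 ± 0.21 (SE; limma, adjusted p = 0.0107) in the Jmjd2b knockdown and -0.18 ± 0.24 (adjusted p = 0.715) in the Jmjd2c knockdown. Without control array 3 the fall of Cox6b2 was -0.83 and did not pass (adjusted p = 0.056), and within the array types, with 1 array on 1 side, it was -1.23 (adjusted p = 0.0861) with the floor and -0.91 (adjusted p = 0.124) without it. Its counterpart Cox6b1 read 8554.5, 7737.6 and 8217.3 in the Jmjd2b knockdown, 8166.0 and 8340.0 in the Jmjd2c knockdown, and 8461.2, 8459.8 and 8724.8 in the control, and passed no test.

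Among 5 testis germ cell markers, Ldhc fell in both knockdowns and the other 4 passed no test. That is 20%, beside 12.9% of all genes in the Jmjd2b knockdown and 5.28% in the Jmjd2c knockdown. The summed intensity of the 5 was 1083.0 to 1370.6 in the Jmjd2b knockdown, 991.6 to 1268.1 in the Jmjd2c knockdown and 1234.9 to 1600.8 in the control. The spermatid genes Tnp1 and Prm1 had means under 20 in every group, and the part of this list in the fall of Cox6b2 was not tested.

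The other isoforms of this kind were dim or did not pass. Cox4i2, a form made in lung and under hypoxia, read 86.4, 57.2 and 74.7 in the Jmjd2b knockdown, 76.2 and 75.5 in the Jmjd2c knockdown, and 88.8, 92.2 and 92.6 in the control, below the controls in every knockdown array. Cox8c, a testis form, read 193.2, 184.6 and 223.9 in the Jmjd2b knockdown, 207.2 and 186.6 in the Jmjd2c knockdown, and 247.6, 222.9 and 219.8 in the control. Cox6a2 read 110.4, 84.6 and 95.3 in the Jmjd2b knockdown, 109.7 and 71.1 in the Jmjd2c knockdown, and 90.6, 83.6 and 83.9 in the control. The Cox8c and Cox6a2 arrays of the Jmjd2b knockdown overlapped the control. Cox8b and Cox7b2 read at most 39.5 in every array. In all, 3 of 8 isoform genes fell in the Jmjd2b knockdown (37.5%, median -0.24) and 2 in the Jmjd2c knockdown (25%, median -0.19). Over all genes 12.9% and 5.28% fell in these knockdowns, and above the median level 18.9% and 8.2%. Of 6 measured ubiquitous counterparts 1, Cox8a, fell in the Jmjd2b knockdown (16.7%). The medians of these counterparts were -0.06 in the Jmjd2b knockdown and -0.04 in the Jmjd2c knockdown.

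The ubiquitous subunits of cytochrome c oxidase fell slightly where they changed. Cox5a, whose probe set was the brightest of the complex, read 10807.7, 10943.4 and 10150.9 in the Jmjd2b knockdown, 11677.8 and 11433.1 in the Jmjd2c knockdown, and 12293.2, 12383.4 and 12047.8 in the control. It fell in the Jmjd2b knockdown, to 86.9% of the mean of the controls (log2 change -0.20 ± 0.04, SE; limma, adjusted p = 0.00747). Cox6c read 6636.5, 5953.6 and 6691.0 in the Jmjd2b knockdown, 6913.0 and 6541.7 in the Jmjd2c knockdown, and 7974.0, 7711.9 and 8276.2 in the control. It fell in both, by 0.31 and 0.25 on the log2 scale (limma, adjusted p = 0.00457 and 0.0494). Cox8a and Cox7a2l, a protein known to link complexes III and IV, fell in the Jmjd2b knockdown to 81.0% and 81.8% of the control mean. Cox4i1, Cox5b, Cox6a1, Cox6b1, Cox7a2 and Cox7c passed no test. A further bright probe set of Cox6a1, with a mean intensity of 5942.3, did fall in the Jmjd2b knockdown. Its log2 change was -0.27 (limma over all probe sets with 1 symbol, adjusted p = 0.0226). The Cox7c probe set was dim beside the others, with a mean intensity of 125.5. Over the 17 genes of complex IV, 6 fell in the Jmjd2b knockdown (35.3%, beside 12.9% of all genes), with a median of -0.13. In the Jmjd2c knockdown 2 fell (11.8%, beside 5.28%), with a median of -0.05. With median scaling the second median was 0.01.

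Complex I, which oxidises NADH, was represented by 35 genes with Nduf symbols, Ndufa4 and Ndufa4l2 included. In the Jmjd2b knockdown 10 fell and 2 rose (median -0.13), and in the Jmjd2c knockdown 5 fell and 1 rose (median -0.10). Of 14 genes of the arm that reaches into the matrix and carries the flavin and iron-sulfur clusters, 5 fell in the Jmjd2b knockdown (median -0.17) and 4 in the Jmjd2c knockdown (median -0.13). Of 19 genes of the membrane arm, which pumps protons, 4 fell and 2 rose in the Jmjd2b knockdown (median -0.07), and 1 rose in the Jmjd2c knockdown (median -0.04). Ndufa4 and Ndufa4l2 are in neither arm, and Ndufa4l2 was among the falls of the complex in both knockdowns. The difference between the arms was not tested.

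Ndufa7, an accessory subunit, fell most in the matrix arm. It read 5921.0, 5069.4 and 5562.5 in the Jmjd2b knockdown, 6306.6 and 6074.4 in the Jmjd2c knockdown, and 8467.2, 7115.5 and 8367.2 in the control. All knockdown arrays lay below all controls, at 69.1% and 77.5% of the control mean. On the log2 scale Ndufa7 differed by -0.53 ± 0.08 (SE; limma, adjusted p = 0.00133) in the Jmjd2b knockdown and -0.36 ± 0.09 (adjusted p = 0.0343) in the Jmjd2c knockdown. Its 5 probe sets gave changes of -0.52 to -0.66 in the Jmjd2b knockdown and -0.36 to -0.44 in the Jmjd2c knockdown.

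Ndufv1 carries the flavin that accepts electrons from NADH. It read 3016.1, 2800.3 and 2909.0 in the Jmjd2b knockdown, 3024.4 and 2847.5 in the Jmjd2c knockdown, and 3599.7, 3490.8 and 3635.3 in the control. Its partner Ndufv2, an iron-sulfur protein, read 4983.0, 4530.4 and 4319.1 in the Jmjd2b knockdown, 4872.6 and 5031.1 in the Jmjd2c knockdown, and 5889.1, 5417.4 and 5766.2 in the control. Ndufv3, an accessory subunit at the same site, read 4173.0, 3682.6 and 4192.8 in the Jmjd2b knockdown, 4541.6 and 4060.4 in the Jmjd2c knockdown, and 4975.9, 5683.7 and 5661.5 in the control. In each of these genes every knockdown array lay below every control array. In the Jmjd2b knockdown they fell to 81.4%, 81.0% and 73.8% of the control mean (limma, adjusted p = 0.0087, 0.0091 and 0.00392). In the Jmjd2c knockdown Ndufv1 and Ndufv3 fell to 82.1% and 79.1% (adjusted p = 0.039 and 0.0466), and Ndufv2 stood at 87.0% and did not pass (adjusted p = 0.136).

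Ndufa6, an accessory subunit of the matrix arm, also fell in both. It read 3963.7, 3738.1 and 4036.4 in the Jmjd2b knockdown, 4114.6 and 4399.9 in the Jmjd2c knockdown, and 5012.4, 5012.1 and 5302.6 in the control, with log2 changes of -0.38 ± 0.06 and -0.26 ± 0.07 (SE; limma, adjusted p = 0.00178 and 0.0418). The iron-sulfur subunits Ndufs1, Ndufs7 and Ndufs8 did not pass, with log2 changes of -0.18, -0.23 and -0.09 for the Jmjd2b knockdown, and -0.19, -0.13 and 0.05 for the Jmjd2c knockdown. After Jmjd2b knockdown Ndufs7 was close to the threshold, with an adjusted p of 0.0514 in limma, and it passed with quantile normalization (adjusted p = 0.0131), among brighter genes only (0.0351), with only those groups in the fit (0.0371) and with array type as a block (0.0297), and Ndufs1 passed with quantile normalization (0.0434).

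In the membrane arm Ndufb7 rose against the direction of most others. It read 3061.4, 2649.0 and 2906.2 in the Jmjd2b knockdown, 2610.5 and 2777.2 in the Jmjd2c knockdown, and 2203.4, 2117.8 and 2231.5 in the control. All knockdown arrays lay above the controls, and the change of 0.39 ± 0.08 passed in the Jmjd2b knockdown (SE; limma, adjusted p = 0.00524), while 0.30 ± 0.09 in the Jmjd2c knockdown did not (adjusted p = 0.0577). Ndufb1, a small accessory subunit with a dim probe set, read 121.2, 111.8 and 91.0 in the Jmjd2b knockdown, 117.7 and 124.2 in the Jmjd2c knockdown, and 78.0, 61.0 and 75.9 in the control. Its changes were 0.50 ± 0.15 and 0.65 ± 0.17 (adjusted p = 0.0343 and 0.0371). With array type as a block they were 0.49 and 0.64 and did not pass (limma, adjusted p = 0.071 and 0.117). Ndufb3, Ndufb5, Ndufb11 and Ndufc1 fell in the Jmjd2b knockdown to between 81.1% and 85.7% of the control mean. Same-numbered Jmjd2b knockdown and control arrays correlated weakly, at 0.111 to 0.176, and differently numbered ones lay lower, at -0.127 to 0.0167. The labels state no pairing, and the main fit has no block. With the replicate number as a block Ndufb1 (limma, adjusted p = 0.0506) and Ndufb11 (adjusted p = 0.0723) did not pass in the Jmjd2b knockdown. Without this block the adjusted p of Ndufb11 was 0.0491.

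Ndufb4 could not be judged from its own probe set, which read at most 15.2 in every array. A brighter probe set annotated to Ndufb4 and the related Ndufb4b and Ndufb4c was left out by the rule of 1 symbol. It read 3023, 2583 and 2847 in the Jmjd2b knockdown, 3550.1 and 3259 in the Jmjd2c knockdown, and 5046, 3989 and 4771 in the control. All 5 knockdown arrays lay below the controls. No test was made of it, and the genes behind its signal cannot be told apart. A second bright probe set with the same symbols was left out too. It read 2680, 2365 and 2523 in the Jmjd2b knockdown, 3164 and 2938 in the Jmjd2c knockdown, and 4536, 3566 and 4401 in the control. Here too all 5 knockdown arrays lay below the controls. Bright probe sets of other genes left out by this rule overlapped the control in both knockdowns. That of Ndufa11 and Ndufa11b read 2765.4 to 3108.5 in the Jmjd2b knockdown, 2789.8 to 3038.9 in the Jmjd2c knockdown and 2633.0 to 2820.4 in the control. Those of Ndufs6 with Ndufs6b and of Ndufs5 with Ndufs5-ps also overlapped, and none of these was tested.

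Complex II, succinate dehydrogenase, takes part in both the citrate cycle and the respiratory chain. Sdhb, its iron-sulfur subunit, read 3411.9, 2920.0 and 3311.1 in the Jmjd2b knockdown, 3404.1 and 3869.3 in the Jmjd2c knockdown, and 4375.2, 4129.9 and 4828.2 in the control. Sdhc, a membrane anchor, read 1951.3, 1711.2 and 1949.7 in the Jmjd2b knockdown, 2035.3 and 2111.6 in the Jmjd2c knockdown, and 2952.8, 2420.1 and 2713.6 in the control. In both genes every knockdown array lay below every control array. Sdhb fell by 0.47 ± 0.09 and Sdhc fell by 0.52 ± 0.09 on the log2 scale in the Jmjd2b knockdown (SE; limma, adjusted p = 0.00429 and 0.00331). In the Jmjd2c knockdown the changes were -0.29 ± 0.10 and -0.37 ± 0.11 and did not pass (adjusted p = 0.103 and 0.0546).

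The other 2 subunits of complex II passed no test. Sdha, the flavoprotein that oxidises succinate, read 2579.8, 2663.7 and 2704.2 in the Jmjd2b knockdown, 2522.8 and 2641.6 in the Jmjd2c knockdown, and 2405.5, 2677.2 and 2616.7 in the control. Sdhd, the other membrane anchor, read 3082.3, 3029.6 and 3172.8 in the Jmjd2b knockdown, 3219.6 and 3363.1 in the Jmjd2c knockdown, and 3517.7, 2980.3 and 3330.3 in the control. In both genes each knockdown overlapped the control, and for Sdhd the Jmjd2c knockdown arrays lay above the Jmjd2b knockdown arrays. A further probe set of Sdhc gave -0.58 and -0.37 in the Jmjd2b and Jmjd2c knockdowns, and a further one of Sdhd gave -0.08 and 0.06.

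Complex III, the cytochrome bc1 complex, had 1 gene of 8 that fell in each knockdown. That is 12.5%, beside 12.9% of all genes in the Jmjd2b knockdown and 5.28% in the Jmjd2c knockdown. Uqcrc2, a core protein, read 5183.3, 4773.3 and 4668.2 in the Jmjd2b knockdown, 4731.4 and 4833.2 in the Jmjd2c knockdown, and 5608.2, 5658.6 and 5839.4 in the control, and fell by 0.23 and 0.25 on the log2 scale (limma, adjusted p = 0.0191 and 0.0404). Uqcrfs1, the Rieske iron-sulfur protein, passed no test. Uqcrb, the brightest probe set of the complex, read 12503.0, 11690.1 and 13118.5 in the Jmjd2b knockdown, 11593.9 and 12934.0 in the Jmjd2c knockdown, and 12559.4, 12690.9 and 12423.8 in the control, with overlapping groups. The median over the 8 genes was -0.13 in the Jmjd2b knockdown and -0.12 in the Jmjd2c knockdown.

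**Figure D3:**
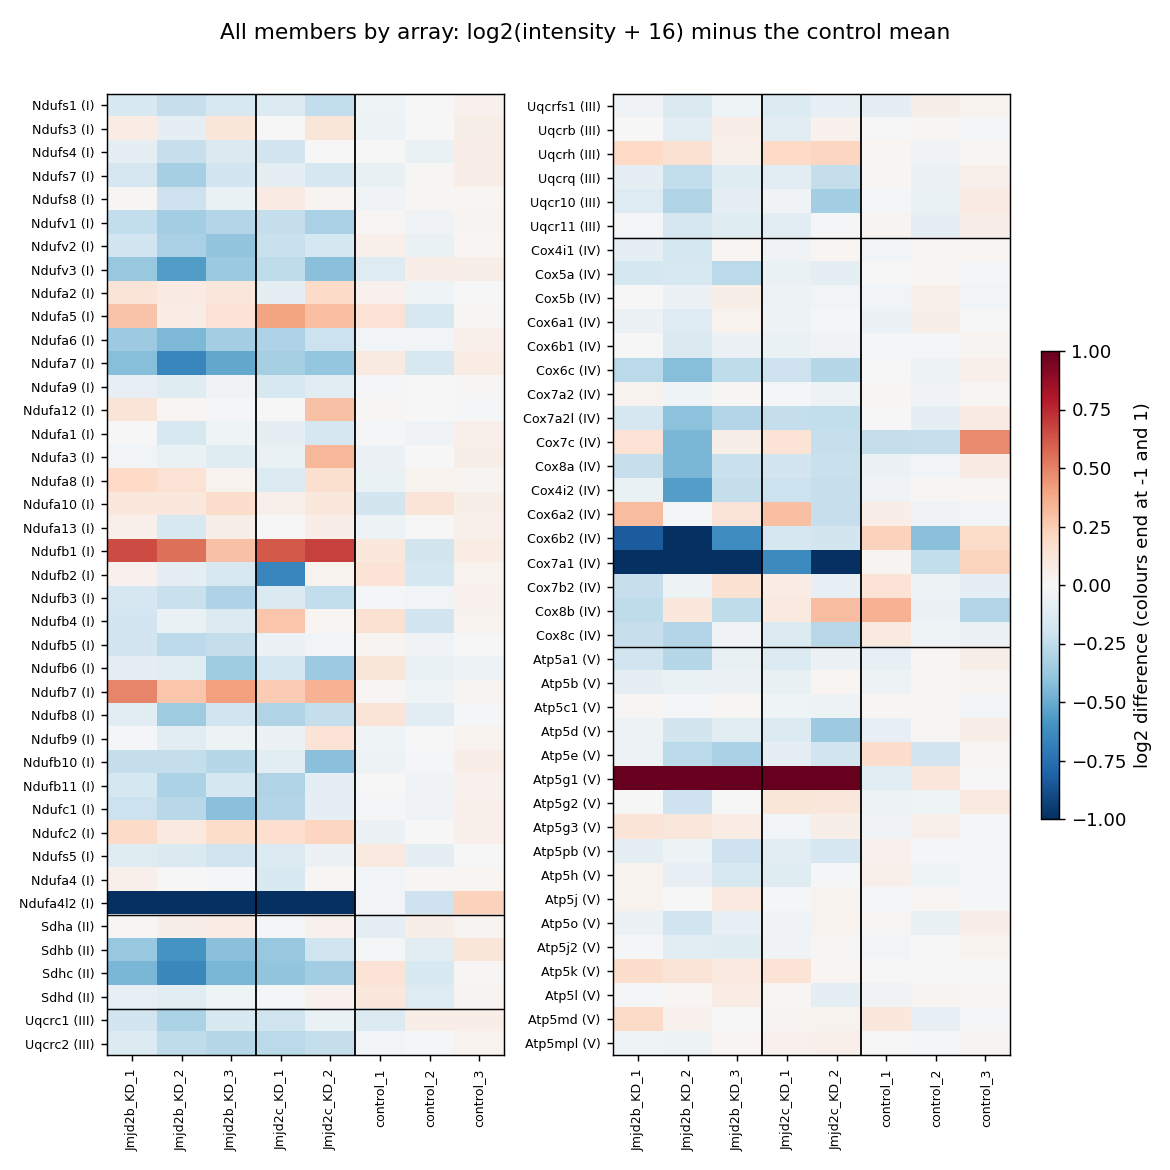
Difference of each array from the control mean (colour, on the log2(intensity + 16) scale, with colours ending at -1 and 1) for all 81 genes in rows, with the complex in brackets, and the 8 arrays in columns. Rows of Ndufv3, Ndufa6, Ndufa7, Sdhb, Sdhc, Cox6c and Cox8a are blue in all 5 knockdown arrays, and Atp5g1, Ndufb7 and Ndufb1 are red in all 5.

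The size of the shift was followed array by array through the median of each complex. For complex I the median difference from the control mean was -0.09, -0.16 and -0.15 in the Jmjd2b knockdown, -0.13 and -0.03 in the Jmjd2c knockdown, and -0.01, -0.03 and 0.04 in the control. For complex V it was -0.01, -0.05 and -0.01 in the Jmjd2b knockdown, -0.03 and 0.02 in the Jmjd2c knockdown, and -0.01, 0.00 and 0.01 in the control. The Jmjd2b knockdown arrays lay below the control arrays for complexes I to IV, and complex II had the lowest medians, at -0.23, -0.35 and -0.23, over only 4 genes. For all genes the medians of single arrays lay between -0.03 and 0.02.

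**Figure D4:**
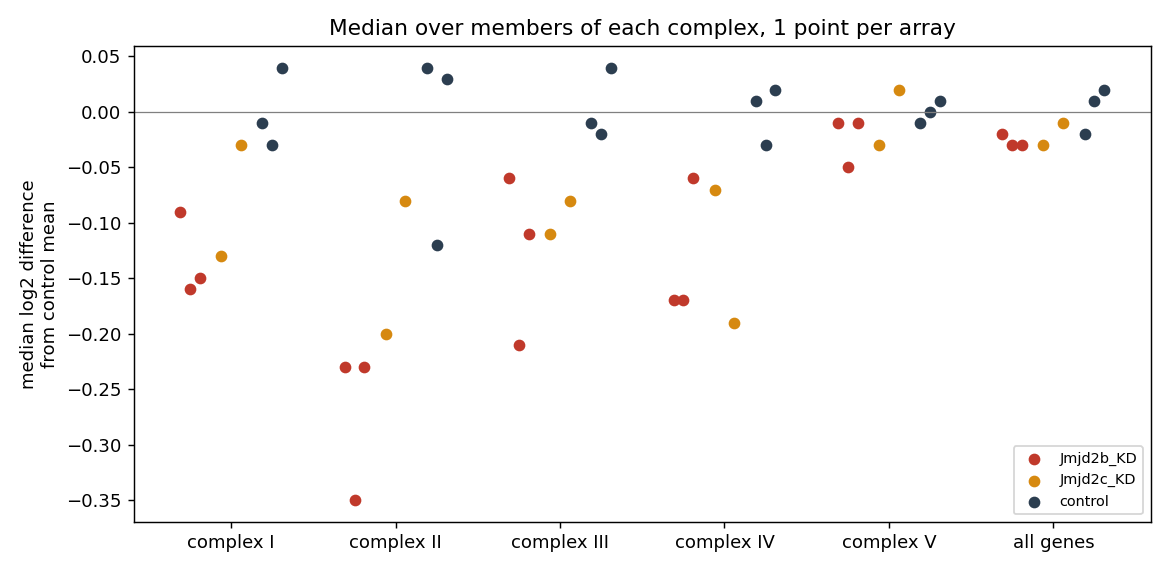
Median log2 difference from the control mean (vertical axis) over the genes of each complex and over all genes, with 1 point per array. The Jmjd2b knockdown arrays lie below 0 for every complex and also over all genes, where they lie at -0.02, -0.03 and -0.03. Their lowest value is -0.05 in complex V and -0.35 in complex II.

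The third comparison set the knockdowns directly against each other, Jmjd2c minus Jmjd2b. None of the 81 genes passed (limma, 0 higher and 0 lower), over all genes 0.203% were higher and 0.489% lower, and 0.693% differed in either direction. At an unadjusted p under 0.05, 4 of the 81 genes differed, and 13.1% of all genes did. All 4 were higher in the Jmjd2c knockdown: Cox6b2, Ndufb5, Cox5a and Atp5g2. Cox6b2 had the lowest adjusted p, 0.208, with a difference of 0.75 ± 0.24 (SE). Without Jmjd2c knockdown array 2 Cox7a1 passed at 1.02 (adjusted p = 0.0303), and without Jmjd2c knockdown array 1 Ndufa3 passed at 0.41 (adjusted p = 0.0359). A difference that misses the threshold with 2 arrays in a group does not show that the knockdowns act alike.

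Genes with more than 1 probe set allowed a check of the calls. Of the 19 genes that fell in the Jmjd2b knockdown, 12 had 20 further probe sets above the median level, and all 20 had a change in the same direction. Of the 8 that fell in the Jmjd2c knockdown, 4 had 8 further such probe sets, and all 8 had the same direction. Ndufa4l2, Cox7a1 and Cox6b2 have 1 probe set each and could not be checked in this way. Of the 3 genes that rose in the Jmjd2b knockdown, 1 had a further such probe set, in the same direction. Of the 2 that rose in the Jmjd2c knockdown, 0 had one. Ndufa10, called in neither knockdown, rose by 0.37 in both when its bright and dim probe sets were averaged (limma, adjusted p = 0.0154 and 0.0494).

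Gene lists around the respiratory chain were counted beside the shares over all genes, which were 12.9% that fell and 11.6% that rose in the Jmjd2b knockdown, and 5.28% that fell and 4.31% that rose in the Jmjd2c knockdown. The respiratory complexes need assembly factors, and 42 of 43 listed were measured. For the Jmjd2b knockdown 9 fell (21.4%) and 5 rose (11.9%), with a median of -0.04, and for the Jmjd2c knockdown 4 fell (9.52%) and 2 rose (4.76%), with a median of -0.10. Nubpl, which delivers iron-sulfur clusters to complex I, had means of 662.3 in the Jmjd2b knockdown, 715.9 in the Jmjd2c knockdown and 1375.4 in the control, and its log2 changes were -1.04 ± 0.15 and -0.94 ± 0.17 (SE; limma, adjusted p = 0.000979 and 0.00949). Sco2, which carries copper to cytochrome c oxidase, rose by 0.89 and 0.81 (adjusted p = 0.00341 and 0.0234). Sdhaf2, which helps attach the flavin of Sdha, rose by 0.71 in the Jmjd2b knockdown (adjusted p = 0.00389), and Foxred1, a complex I assembly factor, fell by 0.75 there (adjusted p = 0.0041). Neither passed in the Jmjd2c knockdown.

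Of 16 measured genes for electron carriers and other inputs, 4 fell (25%) and 1 rose (6.25%) in the Jmjd2b knockdown, and 1 fell in the Jmjd2c knockdown (6.25%, beside 5.28% of all genes). Coq9, needed to make ubiquinone, fell by 0.94 and 0.61 on the log2 scale (limma, adjusted p = 0.000928 and 0.0319). Dhodh and Etfb, which feed electrons toward ubiquinone from pyrimidine synthesis and fatty acid oxidation, fell in the Jmjd2b knockdown by 0.81 and 0.49 (adjusted p = 0.0115 and 0.01). Cycs, cytochrome c itself, rose there by 0.19 (adjusted p = 0.0311).

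The citrate cycle and pyruvate dehydrogenase, which supply NADH and succinate, had 22 measured genes. In the Jmjd2b knockdown 9 fell (40.9%, beside 12.9% of all genes) and 1 rose, with a median of -0.22, and in the Jmjd2c knockdown 4 fell (18.2%, beside 5.28%), with a median of -0.17. Idh2, the NADP-linked mitochondrial isocitrate dehydrogenase, had means of 1177.4 in the Jmjd2b knockdown, 1280.8 in the Jmjd2c knockdown and 2537.9 in the control, with changes of -1.11 ± 0.14 and -0.99 ± 0.16 (SE; limma, adjusted p = 0.000595 and 0.00722). Idh3a, of the NAD-linked enzyme, fell by 0.32 and 0.34 (adjusted p = 0.00443 and 0.0162). Pdk4 and Pdk3, kinases that switch pyruvate dehydrogenase off, also fell in the Jmjd2b knockdown, by 1.39 and 0.60 (adjusted p = 0.000484 and 0.00156), so the list holds falls of both enzymes and their inhibitors.

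Glycolysis was listed for comparison, with 13 of 16 genes measured. The Jmjd2b knockdown had 6 that fell (46.2%, beside 12.9% of all genes; median -0.27), and the Jmjd2c knockdown had 7 (53.8%, beside 5.28%; median -0.28). Hk1, a hexokinase, fell by 1.88 and 1.22 on the log2 scale (limma, adjusted p = 0.000229 and 0.0106), and Pfkp, a phosphofructokinase, fell by 1.97 and 1.36 (adjusted p = 0.000242 and 0.00905). Hk2 and Aldoa fell less, by 0.65 and 0.52 in the Jmjd2b knockdown.

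Mitochondrial ribosomal proteins serve the mitochondrial translation of the remaining subunits. Of 76 genes 8 fell (10.5%, beside 12.9% of all genes) and 12 rose (15.8%, beside 11.6%) in the Jmjd2b knockdown, with a median of 0.00. In the Jmjd2c knockdown 4 fell (5.26%, beside 5.28%), with a median of -0.01. Mrpl24 fell by 1.08 and 0.69 on the log2 scale (limma, adjusted p = 0.000233 and 0.0116). Mrpl32 and Mrps16 fell by 0.49 and 0.46 in the Jmjd2b knockdown, and Mrps34 rose by 0.55 there.

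Of 18 measured carriers and outer membrane proteins, 3 fell (16.7%, beside 12.9% of all genes) and 5 rose (27.8%, beside 11.6%) in the Jmjd2b knockdown, and 2 fell (11.1%, beside 5.28%) and 1 rose (5.56%, beside 4.31%) in the Jmjd2c knockdown. Slc25a3, which brings phosphate to ATP synthase, rose by 0.29 and 0.31 (limma, adjusted p = 0.00371 and 0.0134). Vdac1, a pore of the outer membrane, fell by 0.38 and 0.26 (adjusted p = 0.00109 and 0.0275), and the mitochondrial chaperone Hspa9 fell by 0.35 and 0.24 (adjusted p = 0.00231 and 0.0489). Hspd1, another chaperone, rose by 0.26 in the Jmjd2b knockdown.

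Among 24 regulators listed for respiratory genes, 5 fell (20.8%) and 3 rose (12.5%) in the Jmjd2b knockdown, beside 12.9% and 11.6% of all genes. Of all genes above the median level 18.9% fell and 17.7% rose. In the Jmjd2c knockdown 3 fell (12.5%), beside 5.28% of all genes and 8.2% of those above the median level. Esrrb, an orphan nuclear receptor of naive ES cells, had means of 937.5 in the Jmjd2b knockdown, 1431.4 in the Jmjd2c knockdown and 2750.9 in the control, with changes of -1.53 ± 0.12 and -0.93 ± 0.13 (SE; limma, adjusted p = 5.69e-05 and 0.00468). Gabpa, an ETS factor, fell by 0.41 in the Jmjd2b knockdown (adjusted p = 0.00273), and Myc, a driver of growth, rose by 1.36 (adjusted p = 0.00383). Mtf2, which also fell in both, is a Polycomb protein and no known regulator of respiration. Nrf1, which encodes nuclear respiratory factor 1, read 488.6, 439.3 and 486.4 in the Jmjd2b knockdown, 504.2 and 548.3 in the Jmjd2c knockdown, and 432.7, 451.4 and 492.1 in the control, and Nrf1, Yy1, Esrra and Tfam passed no test.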

How the data were processed

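RNA of 8 samples was measured, and groups and replicate numbers came from the sample titles. Total RNA was labelled as biotinylated cRNA, per the labels' protocols. Each of 45101 probe sets has 1 deposited intensity per array, on a linear scale. The authors' probe summary, background correction and scaling are not stated in the sources used here. Names came from the platform's annotation, which gave exactly 1 symbol for 34945 of them, several for 932 and none for 9160, and 64 were array controls. All 81 subunit genes matched a RefSeq gene table (GRCm38.p6). Of these genes 33 had 1 probe set, and 18 were represented by a probe set of a kind that can detect related transcripts.

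The values were converted to log2(intensity + 16) with no further normalization or filter. Group means were fitted to all 8 arrays over 18193 genes by lmFit and moderated by eBayes, trend included, in limma 3.58.1 under R 4.3.3. Tests were two-sided, and adjusted p under 0.05 counts as a rise or fall. Tables and figures were made with Python 3.11.15, pandas 2.3.3 and matplotlib 3.10.9, and the fit was tested on simulated data. The number of arrays limits the precision.

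The genes, lists and tests were chosen with earlier results of these data known. Values of every array are given for up to 10 called genes per comparison with the largest change, the brightest probe set of each complex, the isoforms and complex II, and for up to 4 genes of each list with the smallest p the change is given. Ubiquitous partners, Atp5g2, Atp5g3, Ndufv2, the probe sets with several symbols, the arms of complex I, and Nrf1, Yy1, Esrra and Tfam were added after their values were seen. The ACGTG letters were added likewise.

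Whether replicate numbers pair arrays was checked by correlating deviations from group means over the genes. Same-numbered Jmjd2b knockdown and control arrays correlated at 0.176, 0.111 and 0.116, and differently numbered ones at -0.127 to 0.0167. The labels state no pairing. Over all probe sets with 1 symbol the same-numbered values were 0.162, 0.0683 and 0.121. Alternatives changed the pseudocount (1 or 64), normalization, filter, probe set choice, arrays in the fit, blocks, trend and single arrays.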

Additional observations from a re-analysis of the deposited data

How the results depend on the processing

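There were 21 alternatives, of which all could be fitted for the genes called in the Jmjd2b knockdown (20 for Ndufb1) and 20 for those called in the Jmjd2c knockdown (19 for Ndufb1), which has no array with the floor at 1. No change of a called gene reversed its direction in these, and Atp5g1 in the Jmjd2b knockdown was the only called gene that passed under all 21, at 0.74 to 1.41, including the fits within an array type, where 1 side is 1 array. Of the genes that did not pass, 8 in the Jmjd2b knockdown, 13 in the Jmjd2c knockdown and 2 between the knockdowns passed under at least 1 alternative, among them Atp5a1, Uqcrc1, Ndufb10 and Ndufc2 in the Jmjd2b knockdown and Sdhb, Sdhc, Ndufb7 and Uqcrh in the Jmjd2c knockdown. The main counts were 3 genes up and 19 down in the Jmjd2b knockdown and 2 up and 8 down in the Jmjd2c knockdown. In the Jmjd2b knockdown, 1 rose and 2 fell within the arrays with the floor at 1, 1 rose and 0 fell within the arrays without it, and 8 fell without an intensity trend. Leaving out 1 array at a time gave 2 to 3 rises and 10 to 21 falls. In the Jmjd2c knockdown, 5 rose and 2 fell with median scaling, 1 rose and 1 fell with only those groups in the fit, 1 rose and 3 fell with the replicate block, 1 rose with array type as a block, 0 rose and 0 fell within the arrays without the floor, and 2 fell without a trend. Leaving out 1 array at a time gave 1 to 4 rises and 1 to 7 falls. Between the knockdowns 0 to 1 gene was higher when 1 array was left out, and 0 were higher or lower under the other alternatives. Fits within an array type rest on 3 or 5 arrays, and the cause of these differences was not tested. With the replicate block the Jmjd2b knockdown had 2 rises and 18 falls, and Ndufb1 and Ndufb11 were the only calls of that comparison that it ended. Same-numbered Jmjd2c knockdown and control arrays correlated at 0.0408 and 0.0633. With only 2 Jmjd2c knockdown arrays this cannot show whether these samples were paired, and the labels do not say. The median change of complex I was -0.18 to -0.09 in the Jmjd2b knockdown and -0.16 to -0.03 in the Jmjd2c knockdown over all settings. Signal over background limits 6 genes below the median level, among them Ndufb4, Cox7b2 and Cox8b.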
